A study of Mus musculus with 9 samples.

Results

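The regulators of primordial germ cell (PGC) specification examined here were Prdm1, Prdm14, Tfap2c, Nanos3, Dppa3 and Dnd1. They were taken by gene symbol and are 6 of the 56691 genes in each deposited table. Their mRNA was measured by RNA-seq in 9 libraries of embryoid body cells from BVSC, a mouse pluripotent stem cell (PSC) line with fluorescent reporters of Blimp1 (mVenus, BV) and of Stella (CFP). Blimp1 is the protein of Prdm1 and Stella that of Dppa3, so 2 of the 6 genes are also read out by the line's own reporters. PSCs were differentiated as embryoid bodies in medium with serum, and cells were sorted into BV+ PGC-like cells (PGCLCs) and BV- somatic cells. Either NRF1 overexpression (NRF1 OE) or an empty vector control (Ctrl) was induced, in all groups, by doxycycline at 1.5 μg/mL from day 2 to day 5. The groups were BV+ NRF1 OE (n = 2), BV+ Ctrl (n = 2), BV- NRF1 OE (n = 3) and BV- Ctrl (n = 2). The Nrf1 cDNA and the empty vector came from a modified pInducer20 vector, p20, so that both arms received the vector and doxycycline. The labels give 1 line and do not say which libraries came from separate cultures, so that p-values measure the spread between these libraries.

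PGCs arise from a few epiblast cells that receive BMP and WNT signals. The transcription factors PRDM1, PRDM14 and TFAP2C together repress somatic genes, restore expression of pluripotency genes and start epigenetic reprogramming. NANOS3 and DND1 are RNA-binding proteins that early germ cells need to survive, and DPPA3 protects the maternal genome of the zygote from demethylation. Several of these genes are also expressed in pluripotent cells or other tissues, so that a transcript of one of them does not by itself mark a germ cell.

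Total counts per library lay between 13702162 and 19625460, and all 6 regulators were among the 16903 genes that passed the filter on low counts. Nrf1, the gene overexpressed, had 1827 to 1858 counts in BV+ NRF1 OE and 1390 to 1723 in BV+ Ctrl libraries, and 1656 to 2121 in BV- NRF1 OE and 1573 to 1969 in BV- Ctrl libraries. Its log2 fold change was 0.10 in BV+ cells (adjusted p = 0.489, edgeR) and 0.26 in BV- cells (adjusted p = 0.0718), so the total Nrf1 counts did not pass the test in either population. Pluripotency genes were high in every library, with Pou5f1 between 797 and 1330 CPM (counts scaled by library size) and Nanog between 359 and 494 CPM. The germ cell gene Dazl had 78.7 to 90.0 CPM in BV+ Ctrl and 81.9 to 94.7 CPM in BV- Ctrl, and 32.6 to 59.3 CPM in BV+ NRF1 OE and 34.4 to 65.7 CPM in BV- NRF1 OE libraries. These genes did not set the libraries labelled BV+ PGCLCs above those labelled BV- somatic cells. Spearman's rho across genes between transcript GC content and the library's log2 CPM relative to the average library was between -0.505 and -0.398 in the Ctrl libraries and between 0.0237 and 0.621 in the NRF1 OE libraries. Because this trend followed the vector, values with GC content and length offsets are also given below.

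Short sequences show where the study's RT-PCR assays read 4 of the regulators. The primers are given 5′ to 3′, and no part is in capitals.
Prdm1 forward: ttctcttggaaaaacgtgtggg
Prdm1 reverse: ggagccggagctagacttg
Dppa3 forward: cagccgtacctgtggagaacaagag
Dppa3 reverse: agccctgggcctcacagctt
Prdm14 forward: tcaattcactcccgaagtacca
Prdm14 reverse: ccggggatggcagaagtaaa
Tfap2c forward: gggcttttctctcttggctggt
Tfap2c reverse: tccacacgtcacccacacaa
In the transcripts of GENCODE M21, the primer pairs enclose bases 251 to 388 of Prdm1-201, bases 304 to 758 of Dppa3-201, bases 384 to 532 of Prdm14-201 and bases 2769 to 2893 of Tfap2c-202. The forward primer of Dppa3 also matches Dppa3-ps, a processed copy whose 451 bases are 98.2% identical to Dppa3, whereas the reverse primer matches Dppa3 alone. Dppa3-ps itself held 2 to 16 counts per library against 920 to 2697 for Dppa3. Of the exonic bases of Dnd1, 140 of 2412 are shared with Wdr55 on the opposite strand, and whether reads were counted by strand is not given in the sources used here. Wdr55 had a log2 fold change of 0.06 (SE 0.128) in BV+ and of 0.17 (SE 0.117) in BV- cells between NRF1 OE and Ctrl (adjusted p = 0.782 and 0.311, edgeR). No exon of Prdm1, Prdm14, Tfap2c, Nanos3 or Dppa3 overlapped an exon of another gene.

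NRF1 binds a palindrome of GC-rich bases, and 2 of the 6 regulators, Prdm1 and Nanos3, matched the RefSeq promoter table of GRCm38.p6. Their windows from 250 bases before to 50 bases after the gene start are shown because NRF1 was the factor overexpressed. The Prdm1 window is chr10:44458699-44458998 and the Nanos3 window chr8:84176503-84176802, both on the minus strand and both written 5′ to 3′ along the gene. Capitals mark matches to the half-site TGCGCA or the full palindrome GCGCATGCGC, each of which reads the same on both strands, and the 2 motifs can overlap.
Prdm1: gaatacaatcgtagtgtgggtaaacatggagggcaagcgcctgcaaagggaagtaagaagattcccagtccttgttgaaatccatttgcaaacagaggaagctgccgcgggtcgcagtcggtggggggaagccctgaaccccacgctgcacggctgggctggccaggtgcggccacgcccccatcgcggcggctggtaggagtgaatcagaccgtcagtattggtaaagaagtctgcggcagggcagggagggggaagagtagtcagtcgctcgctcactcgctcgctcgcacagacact
Nanos3: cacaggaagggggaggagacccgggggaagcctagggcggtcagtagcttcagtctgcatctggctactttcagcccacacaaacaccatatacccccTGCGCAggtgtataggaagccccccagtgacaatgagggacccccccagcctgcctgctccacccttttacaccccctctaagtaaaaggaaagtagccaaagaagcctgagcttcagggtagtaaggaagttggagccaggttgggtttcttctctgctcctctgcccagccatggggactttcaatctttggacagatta
The Nanos3 window holds 1 half-site, which begins 152 bases before the gene start, and the Prdm1 window holds neither motif. Of 32851 windows of this length, 7.76% held the half-site and 0.971% the palindrome. The windows differ in CpG content, with 20 CpG dinucleotides in Prdm1 and 3 in Nanos3. A match of letters is no measure of binding, and the ChIP-seq data of the study were not analysed here.

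Dppa3 was by far the most abundant regulator per length of transcript. Its deposited FPKM averaged 67.1 ± 2.80 (SD, n = 2) in BV+ Ctrl, 102 ± 7.06 (n = 2) in BV+ NRF1 OE, 90.3 ± 1.18 (n = 2) in BV- Ctrl and 158 ± 22.0 (n = 3) in BV- NRF1 OE cells, above between 95.9% and 98.3% of the genes tested. In BV+ Ctrl cells the order after Dppa3 was Tfap2c at 11.7 ± 0.0707 FPKM, Prdm1 at 11.03 ± 0.707, Prdm14 at 9.22 ± 0.0849, Dnd1 at 5.52 ± 0.283 and Nanos3 at 3.17 ± 0.283. Tfap2c and Prdm1 lay within their spread of each other, and the other neighbours were separated by more than their spread in this group. BV- Ctrl cells had the same order, from Tfap2c at 11.9 ± 0.339 FPKM through Prdm1 at 10.4 ± 0.219, Prdm14 at 10.2 ± 0.0849 and Dnd1 at 6.52 ± 0.233 to Nanos3 at 4.50 ± 0.552. Here Prdm1 and Prdm14 were not separated by more than their spread. In BV- NRF1 OE cells Tfap2c at 15.7 ± 2.36 FPKM and Dnd1 at 11.3 ± 1.32 stood before Prdm1 at 9.60 ± 1.81, Prdm14 at 9.40 ± 0.525 and Nanos3 at 8.88 ± 1.03, and from Dnd1 on each gene lay within the spread of the next. In BV+ NRF1 OE cells Tfap2c at 11.8 ± 0.417 FPKM was followed by Prdm1 at 9.80 ± 0.502, Dnd1 at 8.20 ± 1.73, Prdm14 at 7.37 ± 1.45 and Nanos3 at 4.37 ± 0.0919, and Dnd1 lay within its spread of both Prdm1 and Prdm14. The ratio of Dppa3 to Prdm1 in FPKM was 5.65 to 6.56 in BV+ Ctrl and 9.57 to 11.3 in BV+ NRF1 OE libraries. It was 8.44 to 8.86 in BV- Ctrl and 13.0 to 21.3 in BV- NRF1 OE libraries. The value of 21.3 was that of BV- NRF1 OE replicate 2, where Prdm1 was lowest, at 7.53 FPKM.

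The first question was whether the regulators responded to NRF1 OE within each sorted population. The transcription factors Prdm1 and Prdm14 did not pass the test in either population. Prdm1 encodes a zinc-finger repressor that is among the earliest markers of the germ line. It had 53.2 and 56.4 CPM in BV+ NRF1 OE and 57.4 and 62.7 CPM in BV+ Ctrl libraries. It had 61.9, 42.4 and 59.7 CPM in BV- NRF1 OE and 58.5 and 57.2 CPM in BV- Ctrl libraries, so that one BV- NRF1 OE library, replicate 2, stood below all 8 others. Its log2 fold change was -0.13 in BV+ cells (SE 0.166, adjusted p = 0.589, edgeR) with a 95% interval of -0.50 to 0.23, and -0.08 in BV- cells (SE 0.151, adjusted p = 0.726) with an interval of -0.41 to 0.25. Without BV- NRF1 OE replicate 2 the BV- value was 0.04, and with GC content and length offsets the values were 0.02 and 0.20, with none of these called.

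Prdm14 encodes a transcriptional regulator that keeps DNA methylation low in PGCs and in naive PSCs. It had 16.4 and 21.4 CPM in BV+ NRF1 OE, 23.2 and 22.9 CPM in BV+ Ctrl, 24.0, 25.8 and 23.8 CPM in BV- NRF1 OE and 25.8 and 26.3 CPM in BV- Ctrl libraries. The lowest 2 values were those of BV+ NRF1 OE, while the BV- groups overlapped. Its log2 fold change was -0.29 in BV+ cells (SE 0.148, adjusted p = 0.198, edgeR) and -0.09 in BV- cells (SE 0.134, adjusted p = 0.662). The 95% interval in BV+ cells, -0.61 to 0.04, held no rise larger than 0.04. Without BV+ NRF1 OE replicate 1 the BV+ value was -0.10, and without replicate 2 it was -0.49, so 1 library sets its size. The values with GC content and length offsets were -0.35 (adjusted p = 0.0914) and -0.14 (adjusted p = 0.469).

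Tfap2c, which encodes AP-2γ, a factor that also acts in trophoblast and surface ectoderm, rose in BV- cells. It had 60.3, 65.9 and 49.7 CPM in BV- NRF1 OE against 44.3 and 42.8 CPM in BV- Ctrl libraries. In BV+ cells it had 42.6 and 44.1 CPM with NRF1 OE and 42.2 and 41.8 CPM with Ctrl. All 3 BV- NRF1 OE libraries stood above the other 6, which lay between 41.8 and 44.3 CPM. The log2 fold change was 0.43 in BV- cells (SE 0.129, adjusted p = 0.045, edgeR) and 0.05 in BV+ cells (SE 0.14, adjusted p = 0.839). With GC content and length offsets these values were 0.25 (adjusted p = 0.172) and -0.12, so the rise in BV- cells was no longer called and the BV+ value changed sign.

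**Figure D1:**
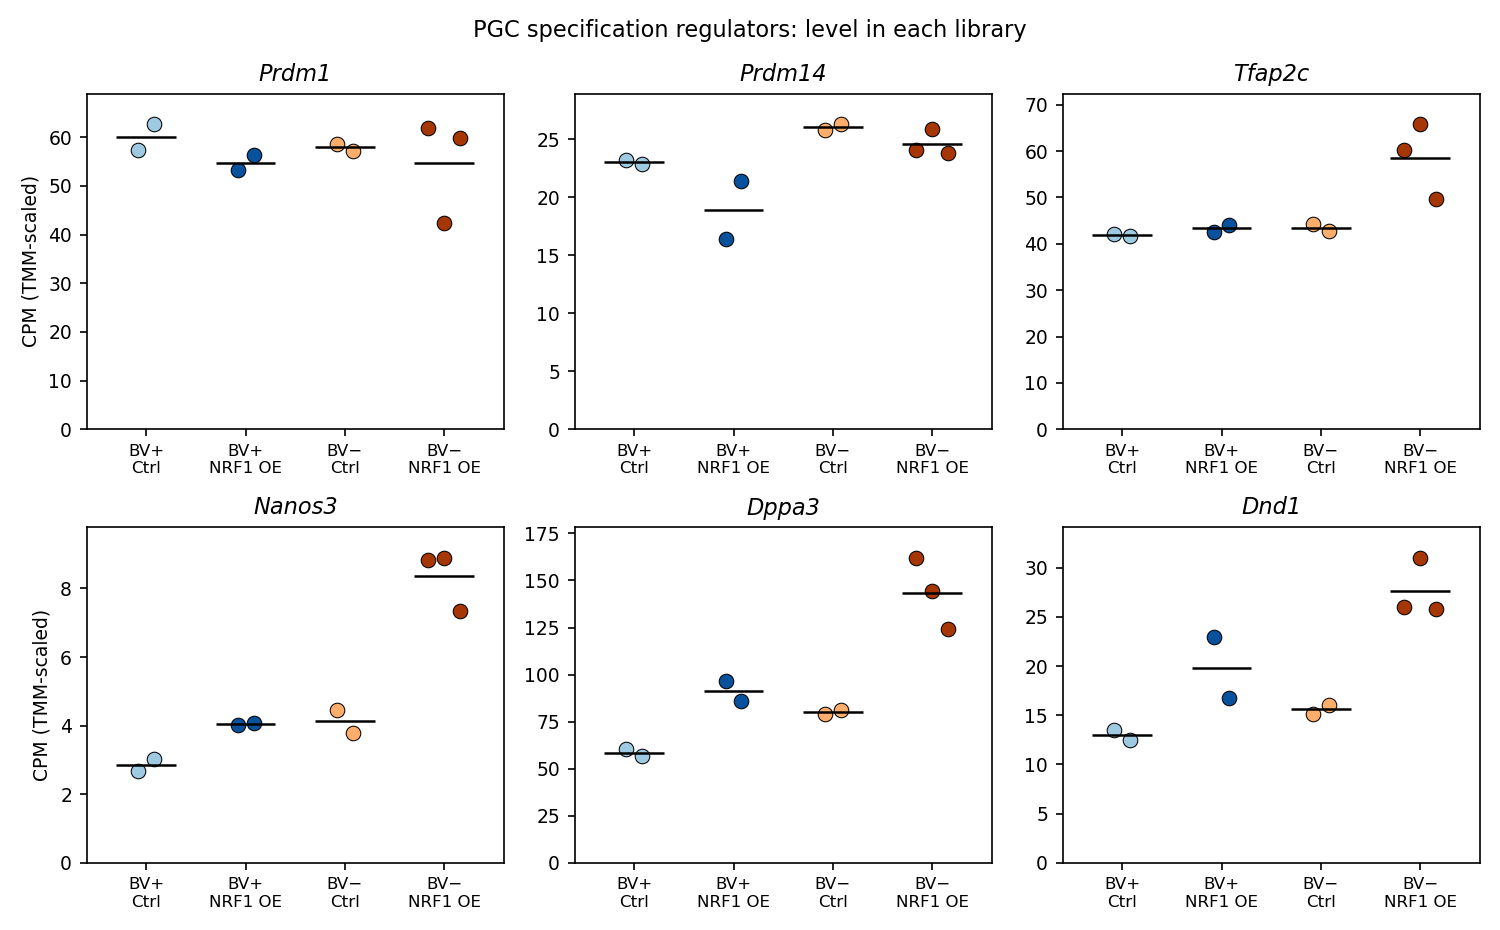
Level of each regulator in the 9 libraries, in CPM scaled by TMM factors, with 1 point per library and a bar at the mean of each group. Nanos3, Dppa3, Dnd1 and Tfap2c were highest in the 3 BV- NRF1 OE libraries, and Prdm1 did not separate BV+ from BV- libraries.

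Of the RNA-binding proteins and the reprogramming factor, Dppa3 rose in both populations, and Nanos3 and Dnd1 rose in BV- cells. Nanos3 encodes a protein that represses target mRNAs in germ cells and prevents their death. It had 8.84, 8.90 and 7.34 CPM in BV- NRF1 OE and 4.47 and 3.79 CPM in BV- Ctrl libraries. It had 4.01 and 4.08 CPM in BV+ NRF1 OE and 2.68 and 3.04 CPM in BV+ Ctrl libraries, from no more than 78 counts in a BV+ library. The groups did not overlap within either population, and the BV+ NRF1 OE libraries were at the level of the BV- Ctrl libraries. The log2 fold change was 1.02 in BV- cells (SE 0.188, adjusted p = 0.0317, edgeR), a 2.03-fold rise. In BV+ cells it was 0.49 (SE 0.218, adjusted p = 0.143), which did not pass the test. Nanos3 has a transcript GC content higher than 84% of the genes tested, and with GC content and length offsets the values were 0.65 in BV- cells (adjusted p = 0.0552) and 0.14 in BV+ cells.

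Dnd1 encodes a protein that binds mRNAs in germ cells and recruits the CCR4-NOT deadenylase complex to them. It had 26.0, 31.1 and 25.9 CPM in BV- NRF1 OE and 15.2 and 16.1 CPM in BV- Ctrl libraries. It had 22.9 and 16.7 CPM in BV+ NRF1 OE and 13.5 and 12.5 CPM in BV+ Ctrl libraries. Every NRF1 OE library exceeded every Ctrl library of either population, and the share of all genes that did so is not given here. The log2 fold change was 0.82 in BV- cells (SE 0.16, adjusted p = 0.0317, edgeR), a 1.77-fold rise, and 0.61 in BV+ cells (SE 0.175, adjusted p = 0.0534), which missed the threshold on the adjusted p but met the study's cut-off of an unadjusted p under 0.05 and an absolute log2 fold change above 0.58. DESeq2 called it in BV+ cells (0.62, adjusted p = 0.0276). With GC content and length offsets the BV+ value was 0.41 (adjusted p = 0.0599), under that fold change, and the BV- value was 0.60 (adjusted p = 0.0202). The BV+ value was 0.37 without BV+ NRF1 OE replicate 1 and 0.82 without replicate 2 (adjusted p = 0.0212), and 0.59 without BV- NRF1 OE replicate 2 (adjusted p = 0.0102).

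Dppa3 was the one regulator called in both populations. It had 96.5 and 86.2 CPM in BV+ NRF1 OE and 60.2 and 56.7 CPM in BV+ Ctrl libraries. It had 162, 144 and 124 CPM in BV- NRF1 OE and 79.0 and 81.0 CPM in BV- Ctrl libraries. As for Dnd1, every NRF1 OE library exceeded every Ctrl library of either population, again with no share of all genes given here. The log2 fold change was 0.64 in BV+ cells (SE 0.137, adjusted p = 0.0252, edgeR) and 0.84 in BV- cells (SE 0.126, adjusted p = 0.0317), or 1.56-fold and 1.79-fold. Dppa3 has a transcript GC content above only 26.3% of the genes tested, and with GC content and length offsets its values were larger, 0.77 in BV+ and 1.03 in BV- cells. The call in BV+ cells was lost without BV+ NRF1 OE replicate 1 (0.56, adjusted p = 0.259) and without BV+ Ctrl replicate 1 (0.69, adjusted p = 0.156) or replicate 2 (0.60, adjusted p = 0.242). In these 3 fits its unadjusted p was 0.0063, 0.00394 and 0.00898 in turn.

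In BV+ cells 1 of the 6 regulators was therefore called higher and none lower, where 6.24% of all genes tested were called higher and 1.78% lower. By the study's cut-off 2 were higher, Dppa3 and Dnd1, where 9.78% of all genes were. In BV- cells 4 of 6 were called higher and none lower, where 10.3% of all genes were called higher and 6.98% lower. By the study's cut-off 3 of these were higher, where 5.73% of all genes were, and Tfap2c fell short of its fold change. The NRF1 OE and Ctrl libraries did not overlap for 6 of 6 regulators in BV+ cells, where 70.1% of all genes did not overlap, and for 4 of 6 in BV- cells, where 57% did not. The median log2 fold change of the 6 was 0.27 in BV+ and 0.62 in BV- cells, and that of all genes tested was 0.04 and 0.01. Of all genes called, 77.8% were higher in BV+ and 59.5% in BV- cells. With GC content and length offsets 58.4% of 2199 calls were higher in BV+ and 77.8% of 1397 calls in BV- cells. The split turned under other settings. It was 48% in BV+ cells in a fit of only the BV+ libraries, and 45.2% in BV- cells with library size alone in place of TMM. The direction was the same in both populations, which share no libraries, for 6 of 6 regulators and for 79.4% of all genes tested. In bulk samples a change in the number of cells that express a gene and a change in mRNA per cell cannot be told apart.

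The calls in BV- cells depended on single libraries, and the fold changes kept their direction. Without BV+ Ctrl replicate 1 or 2, or BV- Ctrl replicate 1 or 2, none of the 4 genes was called (adjusted p = 0.0637 to 0.311, edgeR), and without BV- NRF1 OE replicate 3 only Dppa3 was. Tfap2c was also lost without BV+ NRF1 OE replicate 1 or 2 (adjusted p = 0.0533 and 0.0536) and without BV- NRF1 OE replicate 2 (0.31, adjusted p = 0.0885). Over all 9 omissions the log2 fold change stayed between 0.89 and 1.14 for Nanos3, between 0.75 and 0.93 for Dppa3, between 0.70 and 0.87 for Dnd1 and between 0.31 and 0.53 for Tfap2c. The highest unadjusted p was 0.00528, 0.000838, 0.00483 and 0.0542 for these genes in turn. Without BV- Ctrl replicate 1, as without either BV+ Ctrl library, edgeR called 0 genes of the whole table in BV- cells, with 2821 to 5924 at an unadjusted p under 0.05. The fit of only the BV- libraries called none of the 4 (adjusted p = 0.0806 to 0.0988), GC content and length offsets called 2, Dppa3 and Dnd1, and DESeq2 with all 9 libraries called 4.

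**Figure D2:**
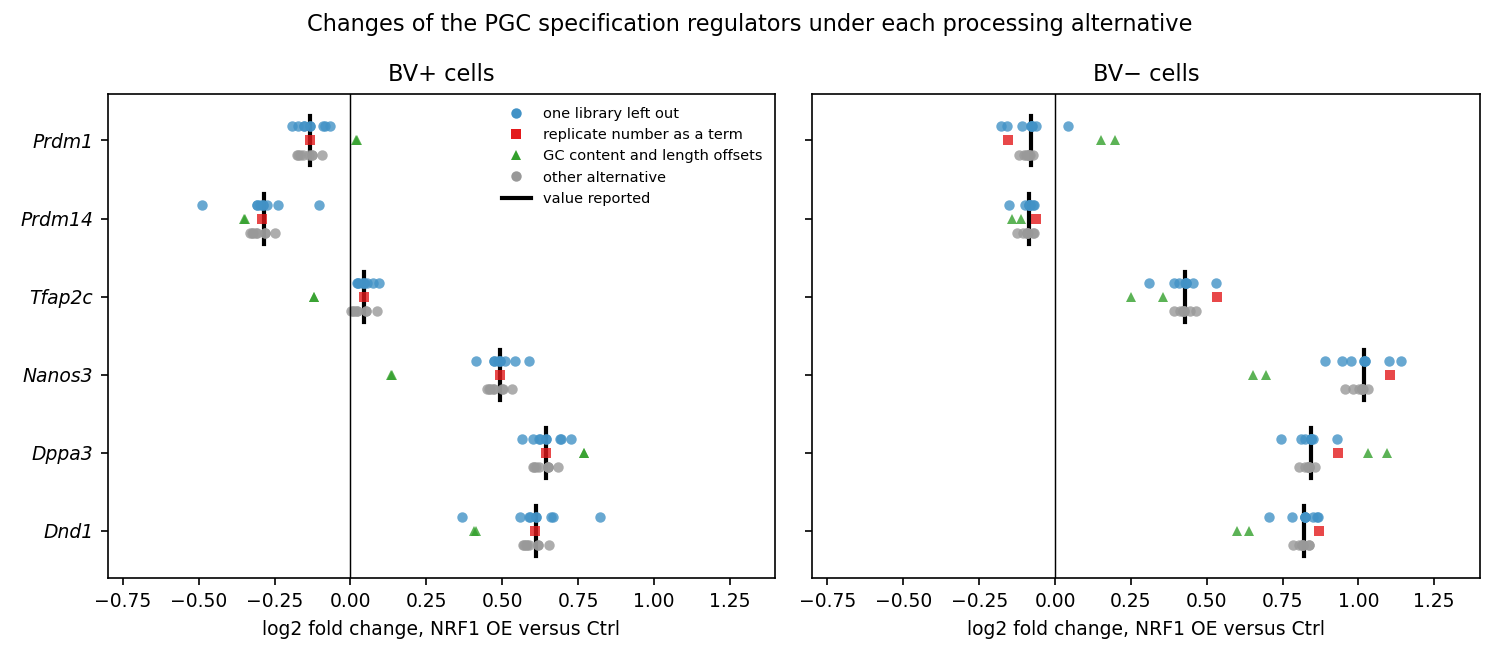
Log2 fold change of each regulator between NRF1 OE and Ctrl in BV+ (left) and BV- cells (right) under each processing alternative; the black bar is the value reported and each symbol is 1 alternative. Dppa3, Dnd1 and Nanos3 stayed above 0 in all of them, Prdm14 below 0, while Prdm1 crossed 0 in both panels and Tfap2c in the left one.

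The next question was whether BV+ PGCLCs differed from BV- cells in these genes. The sort used a Blimp1 reporter, so Prdm1 is given as a description. Its level did not differ by more than the spread between libraries, with 57.4 to 62.7 CPM in BV+ Ctrl and 57.2 to 58.5 CPM in BV- Ctrl, and 53.2 to 56.4 CPM in BV+ NRF1 OE and 42.4 to 61.9 CPM in BV- NRF1 OE libraries. The log2 difference was 0.05 with Ctrl and 0.00 with NRF1 OE, and with GC content and length offsets it was -0.10 and -0.28. Prdm1 mRNA was thus not higher in the population that the reporter of this gene defines. The labels of the sort and of the vector were taken as given, and each direction here is that between libraries as labelled. The other 5 regulators were lower in the BV+ libraries than in the BV- libraries in both comparisons.

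With Ctrl, none of the other 5 regulators was called between BV+ and BV- cells by edgeR, where 1.12% of all genes tested were called. The log2 difference was -0.52 for Nanos3 (SE 0.219, unadjusted p = 0.0363, adjusted p = 0.57), -0.45 for Dppa3 (SE 0.137, unadjusted p = 0.00653, adjusted p = 0.223), -0.27 for Dnd1, -0.18 for Prdm14 and -0.05 for Tfap2c. Of these, 2 had an unadjusted p under 0.05, where 7.77% of all genes did, and DESeq2 called none either. A fit of the 4 Ctrl libraries alone called Dppa3 (-0.44, adjusted p = 0.00112). The BV+ and BV- libraries did not overlap for any of the 5, each lower in BV+, where 25.4% of all genes tested were lower without overlap.

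With NRF1 OE, 3 of the 5 were called lower in BV+ cells, where 3.85% of all genes tested were called lower. Nanos3 differed by -1.04 (SE 0.187, adjusted p = 0.0035, edgeR), or 0.485-fold of its BV- level. Dppa3 differed by -0.65 (SE 0.125, adjusted p = 0.00536) and Tfap2c by -0.43 (SE 0.129, adjusted p = 0.0461). Dnd1, at -0.48 (SE 0.156, adjusted p = 0.0677), and Prdm14, at -0.38 (SE 0.136, adjusted p = 0.0941), did not pass the test. Again the libraries did not overlap for any of the 5, where 19.5% of all genes tested were lower without overlap. The Nanos3 call held in all 9 omissions of a library. Dppa3 missed the threshold without BV+ NRF1 OE replicate 2 (-0.57, adjusted p = 0.0513), and Tfap2c was lost in 8 omissions, all but that of BV- NRF1 OE replicate 3, with an adjusted p of up to 0.212. Dnd1 was called without BV+ NRF1 OE replicate 1 (-0.72, adjusted p = 0.046) and Prdm14 without BV+ NRF1 OE replicate 2 (-0.58, adjusted p = 0.0363). With GC content and length offsets all 5 were called lower, Dnd1 at -0.47 and Prdm14 at -0.40, but these offsets turned the whole comparison. They gave 5094 calls, 33.3% of them higher, against 2325 calls, 72% of them higher, without offsets, and a median of all genes of -0.138. This comparison shares the BV- NRF1 OE libraries with that of NRF1 OE and Ctrl in BV- cells, so that the 2 are not independent for the genes highest in those libraries.

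**Figure D3:**
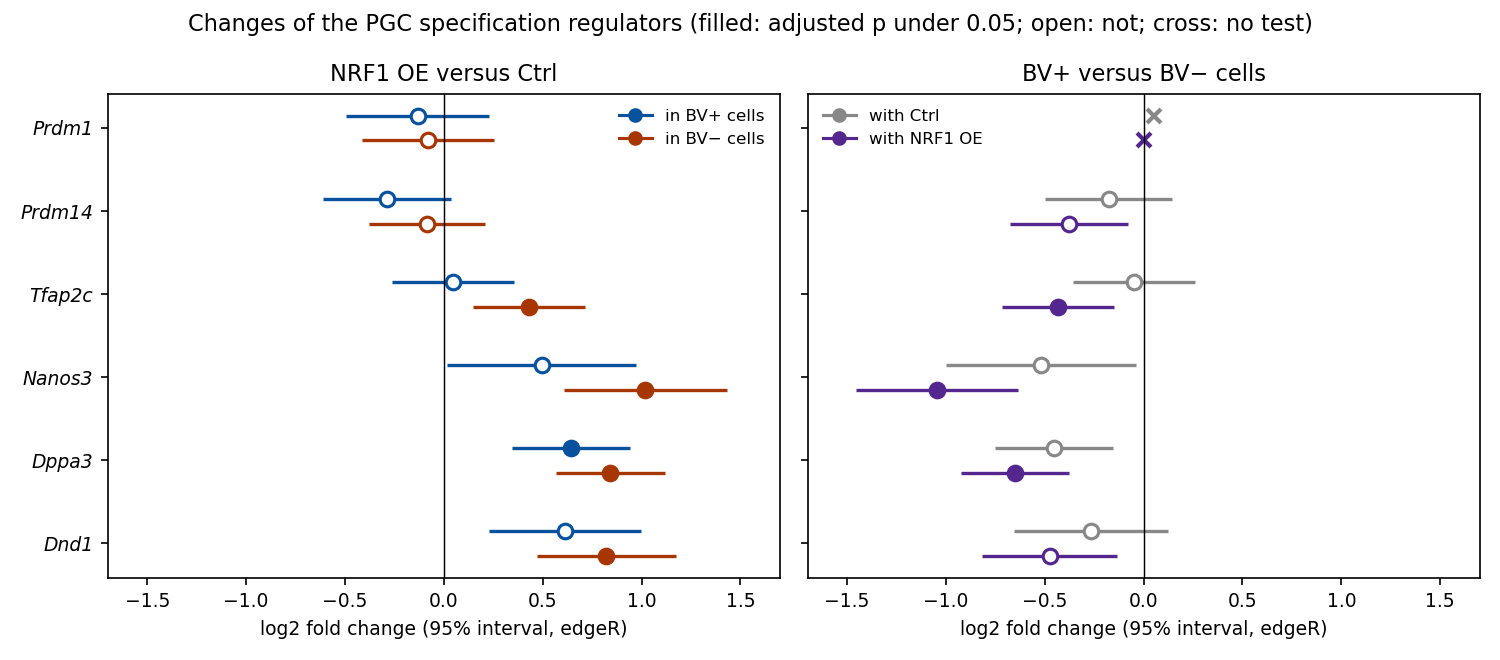
Log2 fold changes of the regulators with 95% intervals from edgeR, for NRF1 OE versus Ctrl (left) and BV+ versus BV- cells (right). Filled points have an adjusted p under 0.05, and crosses are values of Prdm1 with no test. Nanos3, Dppa3 and Dnd1 lie to the right of 0 in the left panel and to the left of 0 in the right panel.

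An interaction term tested whether NRF1 OE acted differently in BV+ and BV- cells. The rise in BV+ cells was smaller than that in BV- cells by point estimate for Nanos3 (-0.52, 95% interval -1.16 to 0.11), Tfap2c (-0.38, -0.80 to 0.03), Dnd1 (-0.21, -0.73 to 0.31) and Dppa3 (-0.20, -0.60 to 0.20). For Prdm14 and Prdm1 the term was -0.20 and -0.05. None of the 6 passed the test, with adjusted p between 0.935 and 0.996 (edgeR). Among all 16903 genes edgeR called 0 and DESeq2 23 for this term, and 932 genes had an unadjusted p under 0.05 in edgeR, 5.51% of those tested and none of them a regulator. Whether the regulators respond differently in BV+ and BV- cells was not resolved with 2 or 3 libraries a group.

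Across the 9 libraries the regulators fell into those that varied together and those that did not. Pearson's r of log2 CPM was 0.963 between Nanos3 and Dppa3, 0.951 between Dppa3 and Dnd1 and 0.917 between Tfap2c and Nanos3. Prdm1 had r = -0.537 with Dnd1 and -0.515 with Tfap2c, and Prdm14 had r = 0.0923 with Dppa3. These values describe 9 libraries that share 4 groups and the GC trend named above, and they were not tested. By the same measure, among 14370 genes of at least 1 CPM, those most like Dnd1 were Elp6, Eif4h and Selenoh (r = 0.994 each). Most like Dppa3 were Ndufb5 (r = 0.994), Atpaf2 (0.983) and Gm8186 (0.978). Most like Nanos3 were Rps19-ps6 (0.987), Hsdl1 (0.982) and Top3b (0.98). Most like Tfap2c were Pdgfa (0.978), Asns (0.974) and Parl (0.971), most like Prdm14 were Pramel12 (0.986), Cenpn (0.984) and Spn (0.981), and most like Prdm1 were Gm5527 (0.963), Zfp456 (0.955) and Gm20939 (0.954).

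Among the genes that act upstream of the regulators, 3 BMP pathway genes were called lower in BV- cells, by edgeR and by DESeq2 but not with GC content and length offsets. Of 13 inducing signals and their transcription factors, 0 were called higher and 3 lower with NRF1 OE by edgeR, where 10.3% of all genes tested were called higher and 6.98% lower, and the list median was -0.23 against 0.01 for all genes. These were the BMP receptors Bmpr1a (-0.78, SE 0.172, adjusted p = 0.0317) and Bmpr2 (-0.93, SE 0.264, adjusted p = 0.0407) and the BMP signal transducer Smad5 (-0.45, SE 0.14, adjusted p = 0.0473). The offsets left none of the 13 called, with -0.26 for Bmpr1a (adjusted p = 0.0568), -0.26 for Bmpr2 (adjusted p = 0.227) and -0.03 for Smad5 (adjusted p = 0.832). The fit of only the BV- libraries called none either, and Bmpr1a was called in 4 and Bmpr2 and Smad5 in 2 of the 9 omissions of a library. In BV+ cells 1 of 13 was called higher, where 6.24% of all genes were, a share of the list near that of all genes. This was the ligand Bmp2, at 40 to 69 counts in NRF1 OE and 11 to 19 counts in Ctrl libraries (1.72, SE 0.408, adjusted p = 0.0343), called in 5 of 9 omissions and with the offsets (1.56, adjusted p = 0.0257).

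With NRF1 OE, 5 of the 13 were called higher and 1 lower in BV+ than in BV- cells, where 9.9% of all genes tested were called higher and 3.85% lower. Bmp2 was among the 5, but it had only 1 to 4 counts in each BV- NRF1 OE library, so that no fold is given. Bmpr2 differed by 1.03 (SE 0.263, adjusted p = 0.0242), Bmp4 by 0.86 (SE 0.247, adjusted p = 0.04) and Bmpr1a by 0.75 (SE 0.172, adjusted p = 0.0145). These were called too with GC content and length offsets, at 0.57, 0.85 and 0.35, and the fit of only the NRF1 OE libraries called none of the 3 (adjusted p = 0.0589, 0.0903 and 0.0503). Bmpr2 and Bmpr1a were called in 7 of the 9 omissions each, and Bmp4 in 3 (0.52 to 1.13, adjusted p of up to 0.333). With Ctrl none of the 13 was called by edgeR.

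Of 8 partner proteins that work with the regulators, such as the PRDM1 partner PRMT5, none was called in BV+ cells by edgeR, and 1 was called higher and 1 lower with GC content and length offsets. In BV- cells 1 of 8 was called higher and 1 lower, each a share near that of all genes. Prmt5 had a log2 fold change of 0.39 (SE 0.111, adjusted p = 0.0403, edgeR) and Pum2, an RNA-binding partner of NANOS proteins, of -0.66 (SE 0.183, adjusted p = 0.0392). Neither was called with GC content and length offsets, at 0.21 (adjusted p = 0.0846) and -0.16 (adjusted p = 0.248). Between BV+ and BV- cells with NRF1 OE 1 of 8 was called higher, a share near the 9.9% of all genes. This was Lin28a, which blocks let-7 maturation (0.43, SE 0.101, adjusted p = 0.0154, edgeR). The offsets called it too, at 0.35, and called 5 of the 8 lower, against 0 without them. But they turned the whole of this comparison, with 5094 of all 16903 genes tested called and 33.3% of those calls higher. With Ctrl none of the 8 was called.

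Of 12 germ cell and shared pluripotency genes, none was called in BV+ cells. Of them 1 was called lower there with GC content and length offsets. In BV- cells 2 of 12 were called higher with NRF1 OE, where 10.3% of all genes tested were, namely Ifitm1 (0.48, SE 0.141, adjusted p = 0.0435) and Ifitm3 (0.39, SE 0.115, adjusted p = 0.0436), which mark early PGCs. With GC content and length offsets Ifitm1 was called (0.36, adjusted p = 0.0479) and Ifitm3 was not (0.21, adjusted p = 0.133), and they were called in 3 and 1 of the 9 omissions. The list as a whole did not rise in BV- cells. Of the 12, 7 had a fold change above 0, and the median was 0.06 against 0.01 for all genes. By the study's cut-off 0 were higher, where 5.73% of all genes were. It put 2 lower, and the share of all genes lower by it is not given here. On the adjusted p from edgeR 0 of the 12 were lower, where 6.98% of all genes were. Mean levels with NRF1 OE and Ctrl were 54.1 and 88.3 CPM for Dazl and 12.4 and 22.3 CPM for Ddx4. Between BV+ and BV- cells with NRF1 OE 3 of 12 were called lower, where 3.85% of all genes were, namely Ifitm1 at -0.58 (SE 0.141, adjusted p = 0.0195), Ifitm3 at -0.48 (SE 0.115, adjusted p = 0.0184) and Pou5f1 at -0.52 (SE 0.104, adjusted p = 0.00711). The offsets, which turned the whole of this comparison, called 7 of the 12 lower, these 3 among them, and with Ctrl none of the 12 was called. The fit of only the NRF1 OE libraries called Pou5f1 (adjusted p = 0.045) but not Ifitm1 (adjusted p = 0.0716) or Ifitm3 (adjusted p = 0.0788). Pou5f1 and Ifitm1 were called in 7 of the 9 omissions each and Ifitm3 in 6.

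**Figure D4:**
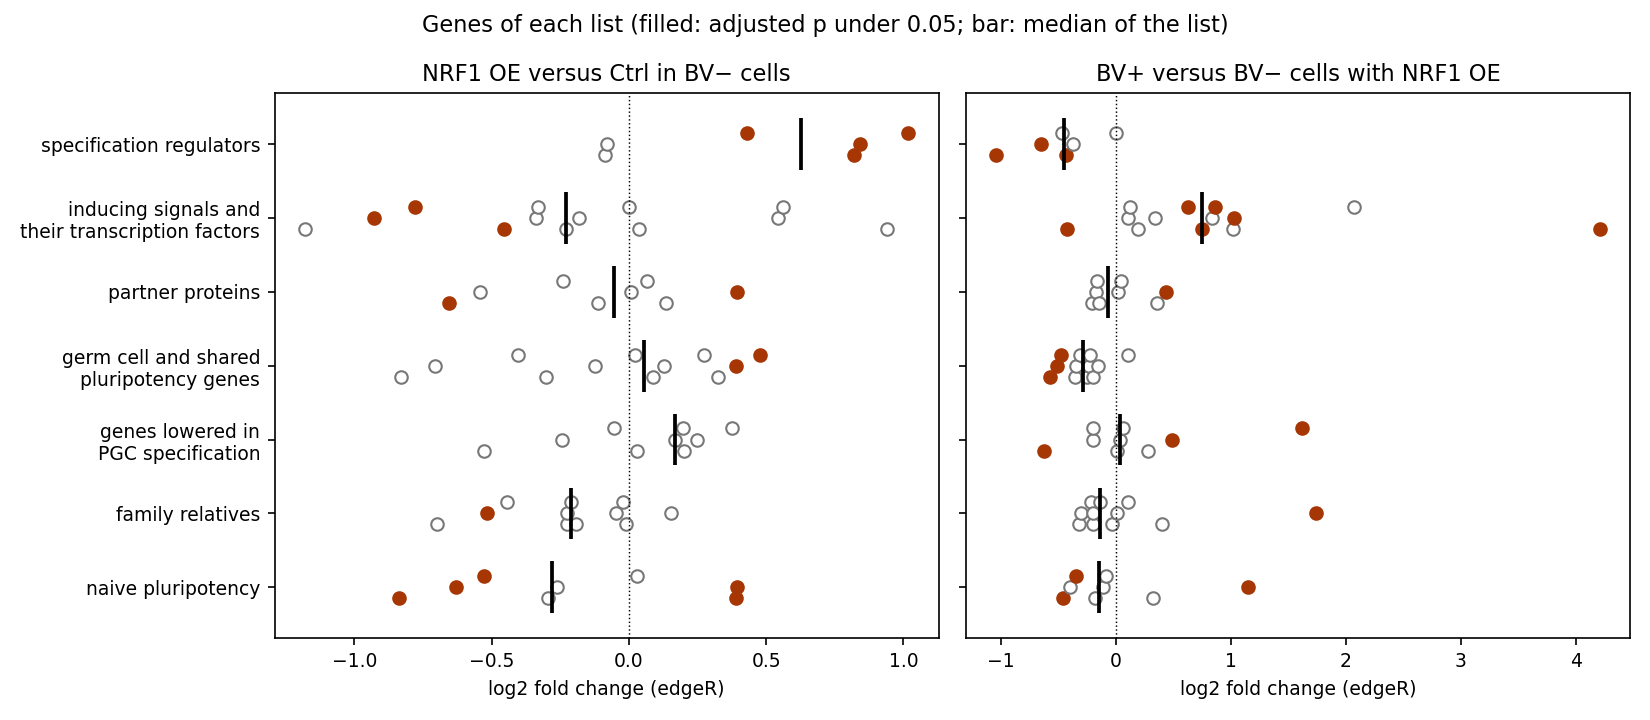
Log2 fold changes of the genes of 7 lists between NRF1 OE and Ctrl in BV- cells (left) and between BV+ and BV- cells with NRF1 OE (right), with 1 point per gene, filled where the adjusted p was under 0.05, and a bar at the median of each list. The regulators had a median of 0.62 on the left and -0.45 on the right, and the inducing signals -0.23 and 0.75.

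Markers of other cells moved with the populations. The summed level of 4 blood and endothelium genes, with Cdh5 and Tal1 as the 2 that passed the filter, was 11.4 to 14.5 CPM in BV+ NRF1 OE, 4.98 to 5.43 CPM in BV+ Ctrl, 2.13 to 3.16 CPM in BV- NRF1 OE and 1.45 to 3.09 CPM in BV- Ctrl libraries. That of 8 mesoderm genes, of which Mesp1, Mixl1 and Foxf1 did not pass the filter, was 25.0 to 38.1, 18.5 to 21.5, 7.57 to 8.36 and 13.7 to 14.0 CPM in the same order. That of 4 surface ectoderm genes was 105 to 161, 58.5 to 58.8, 26.8 to 65.5 and 20.1 to 24.9 CPM, nearly all of it Krt18, with Krt5 and Krt14 at no more than 6 counts in any library. The mesoderm sum was carried by Kdr, a receptor also of endothelium, at means of 21.3, 7.54, 1.59 and 2.22 CPM. Without Kdr the other 7 summed to 7.88 to 12.7, 11.9 to 12.9, 6.11 to 6.61 and 11.5 to 11.8 CPM. Of 5 mesoderm genes tested, NRF1 OE in BV+ cells raised Kdr (1.49, adjusted p = 0.0125, edgeR) and lowered Pdgfra (-1.17, adjusted p = 0.0174). There 6.24% of all genes were called higher and 1.78% lower. In BV- cells Pdgfra was called lower (-1.29, adjusted p = 0.0317) and 0 higher, where 6.98% of all genes were lower and 10.3% higher. The offsets kept these calls, at 1.52 for Kdr and -1.07 and -1.05 for Pdgfra. The fit of only the BV- libraries did not call Pdgfra (adjusted p = 0.0806). Kdr was called in 6 of 9 omissions, and Pdgfra in 6 in BV+ and 5 in BV- cells. The 3 sums, that with Kdr included, were higher in every BV+ library than in every BV- library of the same vector. The 3 neural genes summed to 60.9 to 71.7, 43.8 to 51.0, 32.1 to 46.8 and 29.5 to 36.1 CPM, and the 6 trophoblast genes, with Tpbpa at 0 counts in every library, to 8.32 to 10.5, 6.81 to 7.86, 5.74 to 6.43 and 4.53 to 5.12 CPM. The neural and trophoblast sums too were higher in every BV+ library than in every BV- library of the same vector. The 8 endoderm genes went the other way, at 69.4 to 70.5, 116 to 128, 91.6 to 150 and 182 to 260 CPM. This difference was carried largely by Cubn, at means of 22.5, 67.6, 69.2 and 145 CPM. Dab2, at means of 34.7, 37.9, 31.7 and 51.8 CPM, was not lower in BV+ than in BV- cells with NRF1 OE. The 8 naive pluripotency genes summed to 923 to 1080 CPM in BV+ NRF1 OE and to 1180 to 1260 CPM in the other groups, and the 3 primed epiblast genes to between 41.8 and 79.0 CPM in all. The part of these cells in the levels of the regulators was not tested.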

How the data were processed

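RNA-seq of 9 libraries was analysed. Reads trimmed with Cutadapt were aligned by the authors to GRCm39 (HISAT2 2.0.1) and assigned to Ensembl genes (HTSeq 0.6.1), and the deposited value is a raw count per gene that was not normalized. They also deposited FPKM, used here only to compare levels between genes. Groups came from the sample labels.

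The main test was edgeR's two-sided quasi-likelihood F test (edgeR 4.0.16, R 4.3.3). All 9 libraries entered 1 model with 4 group terms and TMM factors (0.969 to 1.02), and filterByExpr kept 16903 of 33142 genes with a count. Genes were called at a Benjamini-Hochberg adjusted p under 0.05 over all genes tested. CPM were TMM-scaled, and log2 CPM had a prior count of 2. GC content and length came from GENCODE M21 transcripts on GRCm38, for 98.6% of the genes tested. With 2 or 3 libraries a group, precision rests on the spread shared over all genes and over the 4 groups, which differed in it. The chi-square per gene between 2 libraries of a group was 2.99 in BV+ Ctrl and 6.59 in BV- Ctrl. It was 20.2 in BV+ NRF1 OE and 12.3 to 34.7 in BV- NRF1 OE libraries. What this does to the calls was not tested.

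Named were the 6 regulators, per regulator the 3 genes most like it, and of the lists only some of the genes called. Calls of the naive pluripotency genes between BV+ and BV- cells are not given. Nor are those of the markers of other cells, apart from the responses of Kdr and Pdgfra to NRF1 OE. Members and lists were chosen with earlier results of these data known. Alternatives were DESeq2 1.42.0, other size factors and filters, a fit of only the groups compared, thinned counts, the replicate number as a term, GC content and length offsets, and each library left out. The procedure was tested on simulated data. Promoters, primers and exon overlaps were matched in Python 3.11.15 with Biopython 1.88, and figures drawn with matplotlib 3.10.9. ChIP-seq, RT-PCR and flow cytometry were not analysed here. The changes of the regulators' family members with NRF1 OE are not reported here.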

Additional observations from a re-analysis of the deposited data

How the results depend on the processing

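With 2 libraries in 3 of the 4 groups, the number of genes called moved widely with the settings. Fold changes moved too, over the 20 alternatives in BV+ cells from 0.13 to 0.59 for Nanos3 and from -0.49 to -0.10 for Prdm14. By setting, DESeq2 called 2106 genes and 2 regulators for NRF1 OE in BV+ cells, 303 genes between BV+ and BV- cells with Ctrl and 23 for the difference of the NRF1 OE effect. Without a filter the counts were 3440 (2 regulators), 529 and 108, and 4392 genes for NRF1 OE in BV- cells. A filter of a mean of 10 counts called 2 regulators in BV+ cells and gave an interaction of 0.00402 for Prdm1. A fit of only the groups compared called 4371 genes (2 regulators) for NRF1 OE in BV+ cells, 0 genes and 0 regulators in BV- cells (5594 at an unadjusted p under 0.05), 889 genes and 1 regulator between the populations with Ctrl and 1260 genes with NRF1 OE.

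GC content and length offsets called 2199 genes for NRF1 OE in BV+ cells, 1397 (2 regulators) in BV- cells, 290 between the populations with Ctrl and 5094 (5 regulators) with NRF1 OE. With them the NRF1 OE value was 0.0201 for Prdm1 and -0.12 for Tfap2c in BV+ cells and 0.20 for Prdm1 in BV- cells. The cause was not tested.

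Whether the replicate numbers pair the libraries cannot be told from these data. Of 12 same-numbered pairs, 2 had a correlation of deviations from the group mean over 0.1 (range -0.295 to 0.243). Both were pairs of BV- NRF1 OE and BV- Ctrl, at 0.204 and 0.243. In a group of 2 libraries the deviations mirror each other, so the 12 pairs are not independent. With the replicate block edgeR called 3 genes in BV+ cells and 0 in BV- cells (5117 at an unadjusted p under 0.05) for NRF1 OE, 0 regulators in either, 121 genes between the populations with Ctrl and 1064 with NRF1 OE, and the interaction of Prdm1 was 0.0227. The block with GC content and length offsets called 70 genes and 1 regulator for NRF1 OE in BV- cells and 1 gene for the interaction, with 0.0190 for Prdm1 and -0.12 for Tfap2c in BV+ cells and 0.15 for Prdm1 in BV- cells.

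Leaving out 1 library gave 0 to 4957 genes and 0 to 2 regulators for NRF1 OE in BV+ cells, 0 to 5847 genes and 0 to 4 regulators in BV- cells, 31 to 484 genes and 0 regulators between the populations with Ctrl, 786 to 3182 genes and 2 to 3 regulators with NRF1 OE, and 0 to 33 genes for the interaction. Prdm1 ranged from -0.177 to 0.0442 for NRF1 OE in BV- cells, above 0 without BV- NRF1 OE replicate 2, and from -0.199 to 0.0431 for the interaction, above 0 in 4 omissions. Nanos3 had 41 to 147 counts a library, and with counts thinned to the smallest library its call in BV- cells held (0.96, adjusted p = 0.0325).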

Other observations

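Of 19 family members of Nanos3, Tfap2c and the PRDM proteins, 11 passed the filter on low counts. Between BV+ and BV- cells with NRF1 OE, Mecom, a PRDM family gene known from blood stem cells, was 1.74 higher (SE 0.264, adjusted p = 0.00111, edgeR), with means of 6.39 and 1.89 CPM. It was the 1 of the 11 called higher there, a share near the 9.9% of all genes tested, and none was called lower. With GC content and length offsets, which turned the whole of that comparison, it was 1.43 higher and 6 of the 11 were called lower.

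Of 10 genes known to be lowered during PGC specification, among them DNA methyltransferases and somatic regulators, 9 were tested and none was called with NRF1 OE in either population by edgeR. Between BV+ and BV- cells with NRF1 OE 2 were called higher and 1 lower, where 9.9% and 3.85% of all genes tested were. Snai1 was higher by 1.62 (SE 0.314, adjusted p = 0.00567), Fgfr2 higher by 0.49 (SE 0.146, adjusted p = 0.0481) and Dnmt3l lower, at -0.62 (SE 0.141, adjusted p = 0.0127). GC content and length offsets turned the whole of this comparison, to 5094 calls of which 33.3% were higher. With them 1 of the 9 was called higher and 4 lower, and Fgfr2 was not called (0.32, adjusted p = 0.0958). DESeq2 did not call Fgfr2 (adjusted p = 0.0626). The fit of only the NRF1 OE libraries called neither Fgfr2 (adjusted p = 0.128) nor Dnmt3l (adjusted p = 0.0605). Snai1 was called in 8, Dnmt3l in 7 and Fgfr2 in 2 of the 9 omissions of a library. Of 8 naive pluripotency genes, 2 were called higher and 3 lower with NRF1 OE in BV- cells, where 10.3% and 6.98% of all genes were. The largest changes were those of Tbx3 (-0.84), Klf4 (-0.63) and Zfp42 (-0.53). With GC content and length offsets Tbx3 and Klf4 were called lower and none higher, with -0.37 for Zfp42 (adjusted p = 0.06), and the fit of only the BV- libraries called none of the 8. Each of Tbx3, Klf4 and Zfp42 was called in 4 of the 9 omissions of a library. In BV+ cells Zfp42 and Klf4 were called lower, at -0.67 each, where 1.78% of all genes were, and in 3 and 2 of 9 omissions. The offsets called 5 of the 8 lower, these 2 among them. They called 2199 genes in all, 58.4% of them higher, against 1355 without offsets, 77.8% of them higher.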
